A study of Mus musculus with 16 samples.

Results

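Heparan sulfate is a long sugar chain on cell surface and matrix proteoglycans, and its binding of growth factors and morphogens depends on where sulfate groups sit along it. In the Golgi, N-deacetylase/N-sulfotransferases (*Ndst* genes) place N-sulfate, which later enzymes need, and the 2-O-sulfotransferase (*Hs2st1*) and the 6-O-sulfotransferases (*Hs6st* genes) add sulfate to the modified stretches. Outside the cell the endosulfatases (*Sulf* genes) take 6-O-sulfate off again, so the 6-O pattern is set by both. The 10 mouse genes of these 4 groups, *Ndst1*, *Ndst2*, *Ndst3*, *Ndst4*, *Hs2st1*, *Hs6st1*, *Hs6st2*, *Hs6st3*, *Sulf1* and *Sulf2*, were taken by symbol from the 37583 genes of the deposited count files. All 10 had counts in every library and passed the filter on low counts in each comparison.

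RNA was sequenced from snap-frozen cortex and cerebellum of C57BL/6J mice, 4 wild type and 4 with the *Slc39a8* A391T variant. Cortex libraries are named CTX and cerebellum libraries CBLM, with the number of the mouse: CTX447, CTX448, CTX479 and CTX480 with CBLM447, CBLM448, CBLM479 and CBLM480 in wild type, and CTX445, CTX446, CTX461 and CTX462 with CBLM445, CBLM446, CBLM461 and CBLM462 in A391T mice. Values of a group are given in this order. *Slc39a8* encodes a metal ion transporter. Each mouse gave 1 library per region, so there were 4 libraries in each of 4 groups. The wild-type mice were male and 12 weeks old by the study's methods, which took both regions from the hemisphere not used for glycomics. The zygosity, age and sex of the A391T mice and the origin of the allele are not given in the sources used here.

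One limit touches every comparison of genotypes. In the authors' table of RPKM, 8 of 16 columns hold the values that the count files give to a mouse of the other genotype: CTX447 trades with CTX461 and CTX448 with CTX462, and the CBLM libraries likewise. The libraries of the other 4 mice (CTX445, CTX446, CTX479 and CTX480, and their CBLM partners) are named alike in both sources. The count files' names were used. Values by the table's names, or over the 4 mice named alike, are given with the comparisons of genotypes or in the closing section, and where they change a call named here. Both sources pair the same 2 libraries as the regions of a mouse, so ratios within a mouse do not depend on which is right. The fit over both genotypes holds the same 16 libraries under either naming.

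The libraries held between 20813432 and 30497206 counts on genes. Marker genes fitted the labelled regions: a list of 5 cerebellar granule cell genes summed to between 1365 and 1688 TPM, a level scaled for gene length and library total, in the cerebellum and to between 38.3 and 53.3 TPM in the cortex. A list of 5 cortical neuron genes summed to between 2275 and 2848 TPM in the cortex and to between 742 and 994 TPM in the cerebellum. Within a region, 2 libraries stood apart on these genes. CBLM445 was the lowest of its group for 9 of the 10 members, and CTX480 was the lowest of its group for 9 of 10. CBLM445 also had the lowest sum of its group for granule cell genes, at 1365 TPM, and CTX480 for cortical neuron genes, at 2275 TPM. A list of 5 Purkinje cell genes summed to between 4315 and 4996 TPM in the cerebellum and between 416 and 551 TPM in the cortex, and CBLM445, at 4488 TPM, was not the lowest of its group on it (CBLM461, 4406 TPM). Over all genes CBLM445 also stood apart: the chi-square of its counts, divided by the degrees of freedom, was 57.7 to 69.0 against the other A391T cerebellum libraries, whose own pairs gave 6.78 to 7.63. It had the lowest share of reads on no feature (10.2%) and the highest share of ambiguous reads (2.75%) of the 16 libraries. Between regions in A391T mice 3 of the 10 genes were called with it and 3 without it, where 24.7% and 25.1% of all genes tested were called. By the same measure CTX480 gave 14.1 to 31.9 against the other wild-type cortex libraries, whose own pairs gave 4.81 to 11.2, and it had the highest share of reads without a unique place (12.1%) of the 16. Between regions in wild type 4 of the 10 genes were called with it and 4 without it, where 24.7% and 25.2% of all genes tested were called. As the variant changes 1 amino acid, the level of *Slc39a8*, between 1.63 and 3.16 TPM, does not check the genotype labels.

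The genes lie at the following places in NCBIM37, the mm9 build the authors mapped to. *Ndst2* is on chromosome 14 (21542952 to 21549766, minus strand). *Ndst3* (123229084 to 123393770, minus strand) and *Ndst4* (125107009 to 125427904, plus strand) are both on chromosome 3, with 1713238 bases and 10 genes between them, and *Hs2st1* is on the same chromosome (144094067 to 144233145, minus strand). *Hs6st1* (36125245 to 36163291) and *Sulf1* (12708626 to 12850452) are on the plus strand of chromosome 1. *Hs6st2* is on chromosome X (48740389 to 49035033, minus strand), *Hs6st3* on chromosome 14 (119537637 to 120268816, plus strand) and *Sulf2* on chromosome 2 (165898589 to 165981163, minus strand). The methods do not state whether reads were counted by strand. *Sulf2* alone shared exon bases with a neighbour, 2.65% of them with *Ncoa3* on the other strand.

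The region differences below were largest for *Ndst3* among genes higher in the cerebellum and for *Sulf2* among genes lower there, so the 250 bases before their annotated starts are shown beside those of *Ndst2*, which rose with *Ndst3*. The sequences are those of RefSeq for GRCm38.p6, 5′ to 3′ on the gene's strand, and RefSeq windows were found for 7 of the 10 genes (not for *Ndst1*, *Ndst4* and *Sulf1*). Capitals mark CpG dinucleotides.
Ndst3, first start, chr3:123672478-123672727, minus strand: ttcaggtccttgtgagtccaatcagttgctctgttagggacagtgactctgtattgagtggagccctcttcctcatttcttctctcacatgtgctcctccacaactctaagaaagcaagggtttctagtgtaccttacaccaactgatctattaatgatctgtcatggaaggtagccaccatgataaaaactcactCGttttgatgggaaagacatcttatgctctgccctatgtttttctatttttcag
Ndst3, second start, chr3:123619451-123619700, minus strand: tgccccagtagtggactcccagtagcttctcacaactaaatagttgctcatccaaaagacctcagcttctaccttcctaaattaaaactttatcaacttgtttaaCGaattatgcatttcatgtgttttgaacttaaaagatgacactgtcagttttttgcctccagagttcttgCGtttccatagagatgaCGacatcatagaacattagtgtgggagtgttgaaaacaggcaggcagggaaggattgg
Ndst2, chr14:20734563-20734812, minus strand: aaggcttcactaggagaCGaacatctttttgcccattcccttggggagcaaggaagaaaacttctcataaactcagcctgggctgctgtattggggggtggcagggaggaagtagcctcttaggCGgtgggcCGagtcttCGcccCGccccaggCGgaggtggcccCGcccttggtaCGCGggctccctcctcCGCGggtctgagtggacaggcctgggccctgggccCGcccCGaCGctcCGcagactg
Sulf2, first start, chr2:166155684-166155933, minus strand: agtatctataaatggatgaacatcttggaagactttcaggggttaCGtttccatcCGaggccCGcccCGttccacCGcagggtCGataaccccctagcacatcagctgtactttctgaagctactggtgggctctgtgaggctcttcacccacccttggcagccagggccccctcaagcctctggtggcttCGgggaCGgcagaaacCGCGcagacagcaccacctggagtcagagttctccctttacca
Sulf2, second start, chr2:166155286-166155535, minus strand: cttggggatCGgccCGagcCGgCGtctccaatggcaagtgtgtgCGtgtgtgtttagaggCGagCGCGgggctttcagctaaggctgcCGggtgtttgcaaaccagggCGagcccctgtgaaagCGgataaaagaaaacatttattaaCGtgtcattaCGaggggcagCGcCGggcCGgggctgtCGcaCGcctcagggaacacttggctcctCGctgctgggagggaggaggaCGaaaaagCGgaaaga
The 2 *Ndst3* windows held 1 and 3 CpG, against a median of 6 over all 32851 RefSeq windows of this length. Of all windows, 18.8% held as few CpG as the first and 37.8% as few as the second. The window of *Ndst2* held 15 CpG, and those of *Sulf2* held 10 and 21. Windows of the other matched members held 21 (*Hs2st1*), 37 (*Hs6st1*), 36 (*Hs6st3*), and 7 and 26 (*Hs6st2*), so both *Ndst3* windows were below every other member window. The letters GGGCGG, the core of the GC box, were searched on both strands and occurred 3 times in *Ndst2*, 6 times in *Hs6st1*, and once in *Hs2st1* and in the first *Sulf2* window, and 32.7% of all windows held them. TATAAA, searched likewise, occurred once in the first *Sulf2* window and once in the first *Hs6st2* window, and 12.4% of all windows held it. No methylation or binding was measured, and the matches describe these letters only.

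Between genes, levels are compared in TPM, for which the gene lengths of the authors' table were used. In the cortex the order of mean TPM over 8 libraries was *Sulf2* (79.7), *Hs6st1* (76.0), *Ndst1* (58.3), *Hs2st1* (53.5), *Hs6st2* (20.4), *Hs6st3* (18.5), *Sulf1* (17.8), *Ndst2* (16.8), *Ndst3* (13.2) and *Ndst4* (1.05). Of these 9 pairs of neighbours, 4 were separated in all 8 libraries: *Hs6st1* over *Ndst1*, *Hs2st1* over *Hs6st2*, *Ndst2* over *Ndst3*, and *Ndst3* over *Ndst4*. *Sulf2* was above *Hs6st1* in 6 of 8 libraries only, and no pair of neighbours between *Hs6st2* and *Ndst2* was separated. In the cerebellum the order was *Hs6st1* (85.7), *Ndst1* (56.8), *Ndst3* (51.1), *Sulf1* (37.7), *Ndst2* (33.5), *Hs2st1* (31.1), *Hs6st2* (22.3), *Sulf2* (18.7), *Hs6st3* (7.09) and *Ndst4* (0.945). Here 5 of 9 pairs were separated in all 8 libraries, and *Ndst1* over *Ndst3* was not, at 6 of 8. *Sulf2* thus had rank 1 in the cortex and rank 8 in the cerebellum, and *Ndst3* rank 9 and rank 3.

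The gene length matters for this order. The authors' length of *Ndst3* was 43.6% longer than the exon bases of the NCBIM37 annotation, that of *Sulf2* 15.0% longer and that of *Ndst1* 11.2% longer, and the other 7 differed by at most 5.07%. With the annotation's lengths *Ndst3* (73.4) came before *Ndst1* (63.2) in the cerebellum, with the ratio above 1 in 7 of 8 libraries, and *Sulf2* was above *Hs6st1* in all 8 cortex libraries. In the cortex *Ndst3* (19.0) then came before *Ndst2* (16.7). Comparisons of 1 gene between groups do not involve length.

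**Figure D1:**
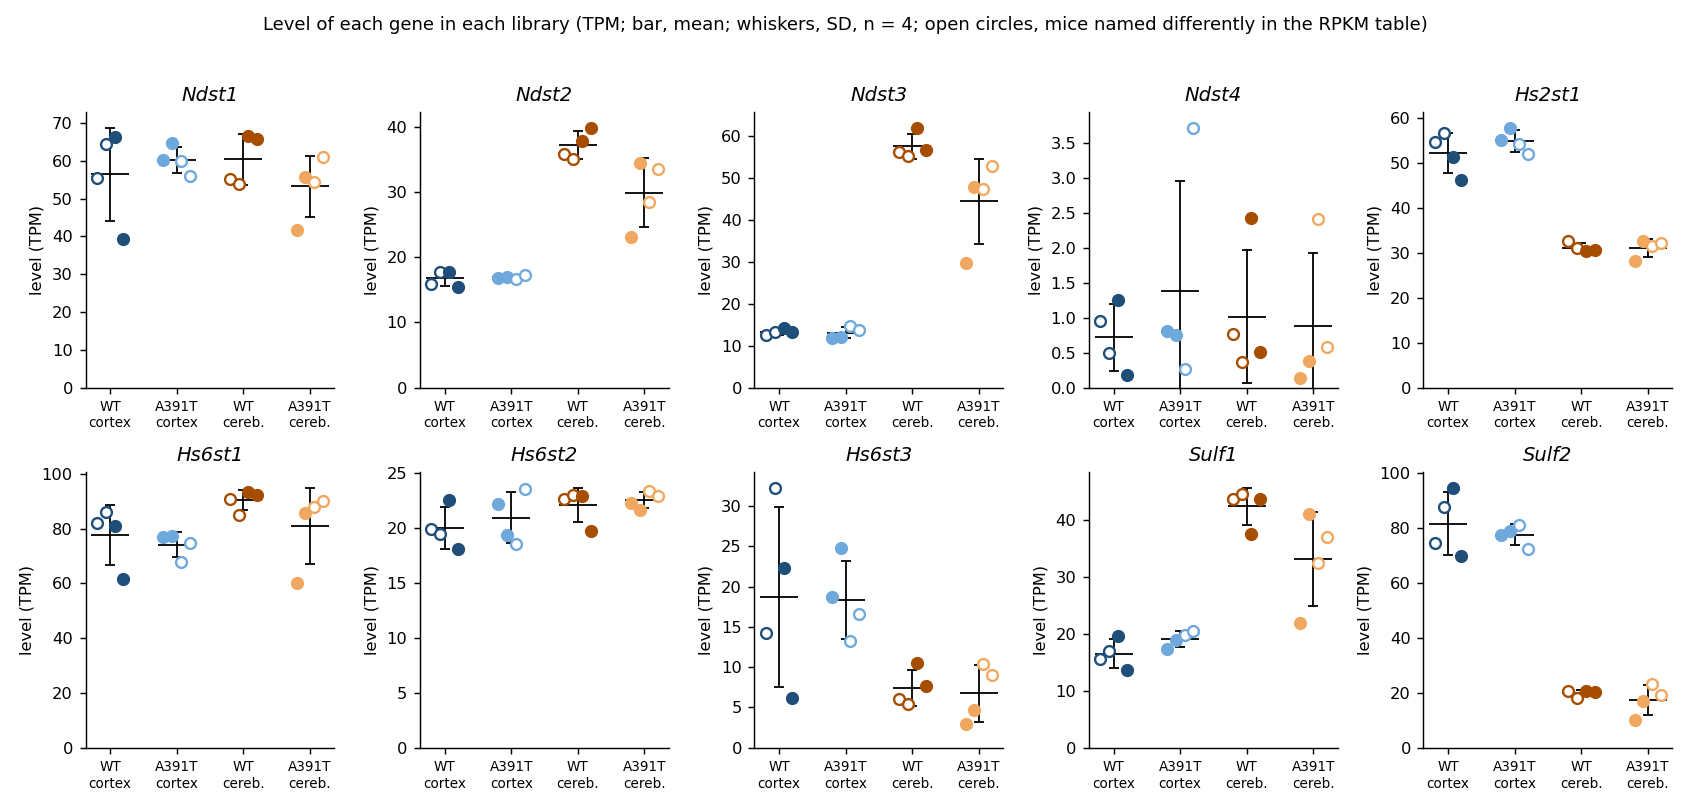
Level in TPM (vertical axes, from 0) of each of the 10 genes in each library, by genotype and region. Points are libraries, horizontal lines the means and whiskers the SD of 4 libraries (cut at 0 for *Ndst4*), and open circles are the 4 mice named differently in the RPKM table. *Ndst2*, *Ndst3*, *Hs2st1*, *Sulf1* and *Sulf2* show regions that do not overlap, while *Ndst1*, *Ndst4*, *Hs6st1* and *Hs6st2* overlap. How many of all genes show regions that do not overlap was not counted.

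The first comparison asks which of these genes differ between cerebellum and cortex in wild-type mice. *Sulf2* was 4.54-fold lower in the cerebellum and *Hs6st3* 2.83-fold lower, while *Ndst3* was 3.88-fold higher and *Sulf1* 2.32-fold higher, all by the fit to counts. *Ndst2* was higher and *Hs2st1* lower by amounts under 2-fold. *Ndst1*, *Ndst4*, *Hs6st1* and *Hs6st2* did not pass the test. By the criteria of an adjusted p-value under 0.05 and a change of at least 2-fold, 4 of 10 genes were called, where 24.7% of the 16040 genes tested were called. Of these, 2 were higher (10.5% of all genes) and 2 lower (14.2% of all genes). By the adjusted p-value alone 6 of 10 passed, against 67.8% of all genes, 3 of them higher (34.7% of all genes) and 3 lower (33.1%). By the RPKM names, 2 of 10 were called, *Ndst3* and *Sulf2*, where 23.9% of 16004 genes were called, and *Sulf1* and *Hs6st3* fell short of 2-fold. The median log2 fold change of the 10 was 0.03, against 0.02 over all genes tested.

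Among the N-sulfotransferases, *Ndst3* is known as a form used mainly in the brain. In wild-type cortex it was at 12.5, 13.4, 14.3 and 13.3 TPM (CTX447, CTX448, CTX479 and CTX480). In wild-type cerebellum of the same mice it was at 56.2, 55.4, 62.1 and 56.9 TPM. The A391T libraries were at 11.9, 12.2, 14.6 and 13.6 TPM in the cortex and at 29.8, 48.0, 47.5 and 52.9 TPM in the cerebellum. Every cerebellum library was above every cortex library, and CBLM445 was the lowest of the 8 in the cerebellum. Cerebellum over cortex, the log2 fold change was 1.96 ± 0.06 (SE, n = 4 and 4, adjusted p = 2.24e-10 by the quasi-likelihood test of edgeR) in wild type. It was 1.65 ± 0.14 in A391T mice (adjusted p = 3.84e-06, the same test).

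*Ndst2*, the form that dominates in mast cells, was at 15.9, 17.7, 17.8 and 15.5 TPM in wild-type cortex in the same order of mice. In wild-type cerebellum it was at 35.8, 35.1, 37.8 and 39.9 TPM. A391T libraries had 16.8, 16.9, 16.6 and 17.3 TPM in the cortex and 23.0, 34.5, 28.5 and 33.5 TPM in the cerebellum. The regions did not overlap in either genotype. The log2 fold change in wild type was 0.999 ± 0.07 (adjusted p = 1.6e-07 by edgeR), just under the 2-fold criterion, and it was past that criterion in 9 of 19 alternative settings. It was 0.71 ± 0.10 in A391T mice (adjusted p = 0.000177 by edgeR).

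*Ndst1*, the broadly used form, lies on chromosome 18 (60845632 to 60908304, minus strand of NCBIM37). It ranged from 39.3 to 66.4 TPM in wild-type cortex and from 53.9 to 66.7 TPM in wild-type cerebellum. It did not pass the test, and its log2 fold change was -0.05 ± 0.14 (adjusted p = 0.749 by edgeR). In A391T mice it ranged from 56.0 to 64.7 TPM in the cortex and from 41.8 to 61.0 TPM in the cerebellum, with a log2 fold change of -0.29 ± 0.09 (adjusted p = 0.0155 by edgeR). That p-value did not pass in 3 of 19 alternatives: with library totals (-0.15, adjusted p = 0.158 by edgeR), in 1 model of all 16 libraries (-0.27, adjusted p = 0.0649) and over the mice named alike (-0.43, adjusted p = 0.0596). The regions overlapped in both genotypes, and the fit over both genotypes did not call it (-0.16 ± 0.09, adjusted p = 0.107 by edgeR).

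*Ndst4* was the lowest of the 10 in both regions, with between 9 and 245 counts per library. Wild-type libraries had 0.945, 0.488, 1.25 and 0.183 TPM in the cortex and 0.767, 0.362, 2.42 and 0.503 TPM in the cerebellum. A391T libraries had 0.804, 0.750, 0.262 and 3.72 TPM in the cortex and 0.137, 0.384, 2.41 and 0.574 TPM in the cerebellum. The high libraries were single ones, CTX462, CBLM461 and CBLM479, and the other region of those mice was at 0.574, 0.262 and 1.25 TPM. The coefficient of variation within groups was between 66.1% and 119%, against at most 31.8% for *Ndst1*, *Ndst2*, *Ndst3*, *Hs2st1*, *Hs6st1*, *Hs6st2*, *Sulf1* and *Sulf2*. The log2 fold change between regions was 0.35 ± 0.61 in wild type and -0.85 ± 0.88 in A391T mice (adjusted p = 0.627 and 0.422 by edgeR). It turned to -0.55 without CBLM479 and to 0.38 without CTX462, so no direction is given. A list of striatum genes, 5 of 6 of them found, summed to 204 TPM in CTX461 and 424 TPM in CTX480, the cortex libraries lowest in *Ndst4*, and to 667 TPM in CTX462, the highest. The other 5 cortex libraries lay between 493 and 650 TPM, and the part of this in the level of *Ndst4* was not tested.

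The make-up of the family does not depend on scaling between libraries. Of the summed TPM of the 4 *Ndst* genes in wild type, *Ndst3* made up 15.6% ± 2.62 (SD, n = 4) in the cortex and 37.0% ± 1.54 in the cerebellum. *Ndst1* made up 64.2% ± 4.48 and 38.6% ± 1.57, and *Ndst2* made up 19.4% ± 2.21 and 23.8% ± 0.964. Over all 8 mice the share of *Ndst3* lay between 12.9% and 19.5% in the cortex and between 31.4% and 38.2% in the cerebellum, without overlap. The summed level of the family was 87.3 ± 14.1 TPM in wild-type cortex and 156 ± 11.7 TPM in wild-type cerebellum. The library that stood apart, CBLM445, was low in all 4 genes, yet *Ndst3* made up 31.4% of its family, still above all 8 cortex libraries. With the annotation's lengths the share of *Ndst3* lay between 16.4% and 24.4% in the cortex and between 38.1% and 45.5% in the cerebellum.

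*Hs2st1*, the only 2-O-sulfotransferase for heparan sulfate, was lower in the cerebellum. In wild-type cortex it was at 54.5, 56.6, 51.3 and 46.3 TPM and in wild-type cerebellum at 32.5, 30.9, 30.4 and 30.7 TPM. A391T libraries were at 55.1, 57.8, 54.1 and 51.9 TPM in the cortex and at 28.1, 32.5, 31.6 and 32.2 TPM in the cerebellum. It was the most even member, with a coefficient of variation of at most 8.62% in any group, and the regions lay far apart. Its log2 fold change was -0.90 ± 0.07 in wild type (adjusted p = 6.46e-07 by edgeR) and -0.92 ± 0.06 in A391T mice (adjusted p = 3.94e-07). It was below the 2-fold criterion in all 19 alternative settings of either comparison, while its adjusted p-value passed in all of them. *Glce*, the C5-epimerase that makes the iduronic acid which *Hs2st1* sulfates, went the other way, from 28.2 ± 2.58 TPM in wild-type cortex to 46.3 ± 5.38 TPM in wild-type cerebellum. Its log2 fold change was 0.56 ± 0.08 (adjusted p = 0.000116 by edgeR).

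*Hs6st1*, the main 6-O-sulfotransferase by level here, was at between 61.5 and 86.1 TPM in wild-type cortex and between 85.1 and 93.3 TPM in wild-type cerebellum. *Hs6st2* was at between 18.1 and 22.5 TPM in the cortex and between 19.7 and 23.0 TPM in the cerebellum of the same mice. Neither passed the test between regions: the log2 fold change of *Hs6st1* was 0.07 ± 0.09 and that of *Hs6st2* was -0.01 ± 0.08 in wild type (adjusted p = 0.54 and 0.949 by edgeR). In A391T mice these were 0.02 ± 0.10 and 0.01 ± 0.09 (adjusted p = 0.905 and 0.965). *Hs6st1* ranged from 67.8 to 77.3 TPM in A391T cortex and from 60.2 to 90.3 TPM in A391T cerebellum, and *Hs6st2* from 18.5 to 23.5 TPM and from 21.6 to 23.3 TPM. The regions overlapped for both genes in both genotypes.

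*Hs6st3*, the remaining 6-O-sulfotransferase, was lower in the cerebellum but varied most among mice after *Ndst4*. In wild-type cortex it was at 14.3, 32.3, 22.3 and 6.14 TPM, and in the cerebellum of the same mice at 6.07, 5.45, 10.5 and 7.62 TPM. In A391T mice it was at 18.7, 24.8, 13.2 and 16.5 TPM in the cortex and at 2.92, 4.67, 10.4 and 9.07 TPM in the cerebellum. The wild-type regions overlapped through CTX480, from the only one of 8 mice with more in the cerebellum, and the A391T regions did not. The log2 fold change was -1.50 ± 0.40 in wild type (adjusted p = 0.00663 by edgeR) and -1.57 ± 0.34 in A391T mice (adjusted p = 0.00235). In wild type it was -1.10 without CTX448. With only CTX479, CTX480 and their CBLM partners, which carry the same name in both sources, it was -0.81 ± 0.57 and did not pass (adjusted p = 0.285 by edgeR). By the names of the RPKM table it was -0.78 ± 0.30 in wild type, short of 2-fold (adjusted p = 0.0383 by edgeR), and -2.35 ± 0.27 in A391T mice (adjusted p = 2.74e-05). Over only the A391T mice named alike it was -2.59 ± 0.28 (adjusted p = 0.00146 by edgeR). It had between 33 and 365 counts per library. Of its 1413 annotated exon bases 99.8% were coding, where the other members had between 23.8% and 75.0%.

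Of the summed TPM of the 3 *Hs6st* genes, *Hs6st1* made up between 62.5% and 71.7% in the 8 cortex libraries and between 70.5% and 77.2% in the 8 cerebellum libraries. *Hs6st3* made up between 7.17% and 23.4% in the cortex and between 3.42% and 8.56% in the cerebellum, with an overlap. The summed level in wild type was 116 ± 22.3 TPM in the cortex and 120 ± 5.38 TPM in the cerebellum.

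The endosulfatases changed places between the regions. *Sulf2* was at 74.6, 87.7, 94.8 and 69.7 TPM in wild-type cortex and at 20.7, 18.2, 20.7 and 20.1 TPM in wild-type cerebellum. A391T libraries were at 77.7, 79.1, 81.3 and 72.5 TPM in the cortex and at 10.0, 17.0, 23.2 and 19.3 TPM in the cerebellum. The lowest cortex library, at 69.7 TPM, was far above the highest cerebellum library, at 23.2 TPM. Its log2 fold change was -2.18 ± 0.09 in wild type (adjusted p = 2.99e-09 by edgeR) and -2.28 ± 0.19 in A391T mice (adjusted p = 2.67e-06).

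*Sulf1* was at 15.6, 17.0, 19.7 and 13.6 TPM in wild-type cortex and at 43.7, 44.6, 37.5 and 43.6 TPM in wild-type cerebellum. A391T libraries were at 17.3, 18.9, 19.7 and 20.5 TPM in the cortex and at 21.8, 41.0, 32.5 and 37.1 TPM in the cerebellum. The regions did not overlap, and the smallest distance was between CBLM445 and CTX462. Its log2 fold change was 1.21 ± 0.10 in wild type (adjusted p = 1.17e-06 by edgeR) and 0.68 ± 0.15 in A391T mice (adjusted p = 0.00262). By the names of the RPKM table the values were 0.88 in wild type and 1.02 in A391T mice, so which genotype passes the 2-fold criterion depends on the source of the names. Over only the mice named alike they were 1.12 ± 0.19 (adjusted p = 0.00525 by edgeR) and 0.71 ± 0.27 (adjusted p = 0.0855).

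Within every library the order of the pair was fixed by the region. *Sulf2* was between 3.54 and 5.16 times *Sulf1* in the 8 cortex libraries, and *Sulf1* was between 1.40 and 2.45 times *Sulf2* in the 8 cerebellum libraries. In wild type, *Sulf1* made up 16.8% ± 0.554 (SD, n = 4) of the TPM of the pair in the cortex and 67.9% ± 2.70 in the cerebellum. In A391T mice it made up 19.8% ± 1.62 and 65.8% ± 5.37. The pair together was at 98.2 ± 14.0 TPM in wild-type cortex and 62.3 ± 2.81 TPM in wild-type cerebellum. With the annotation's lengths *Sulf1* made up between 14.4% and 19.7% in the cortex and between 54.8% and 67.9% in the cerebellum.

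**Figure D2:**
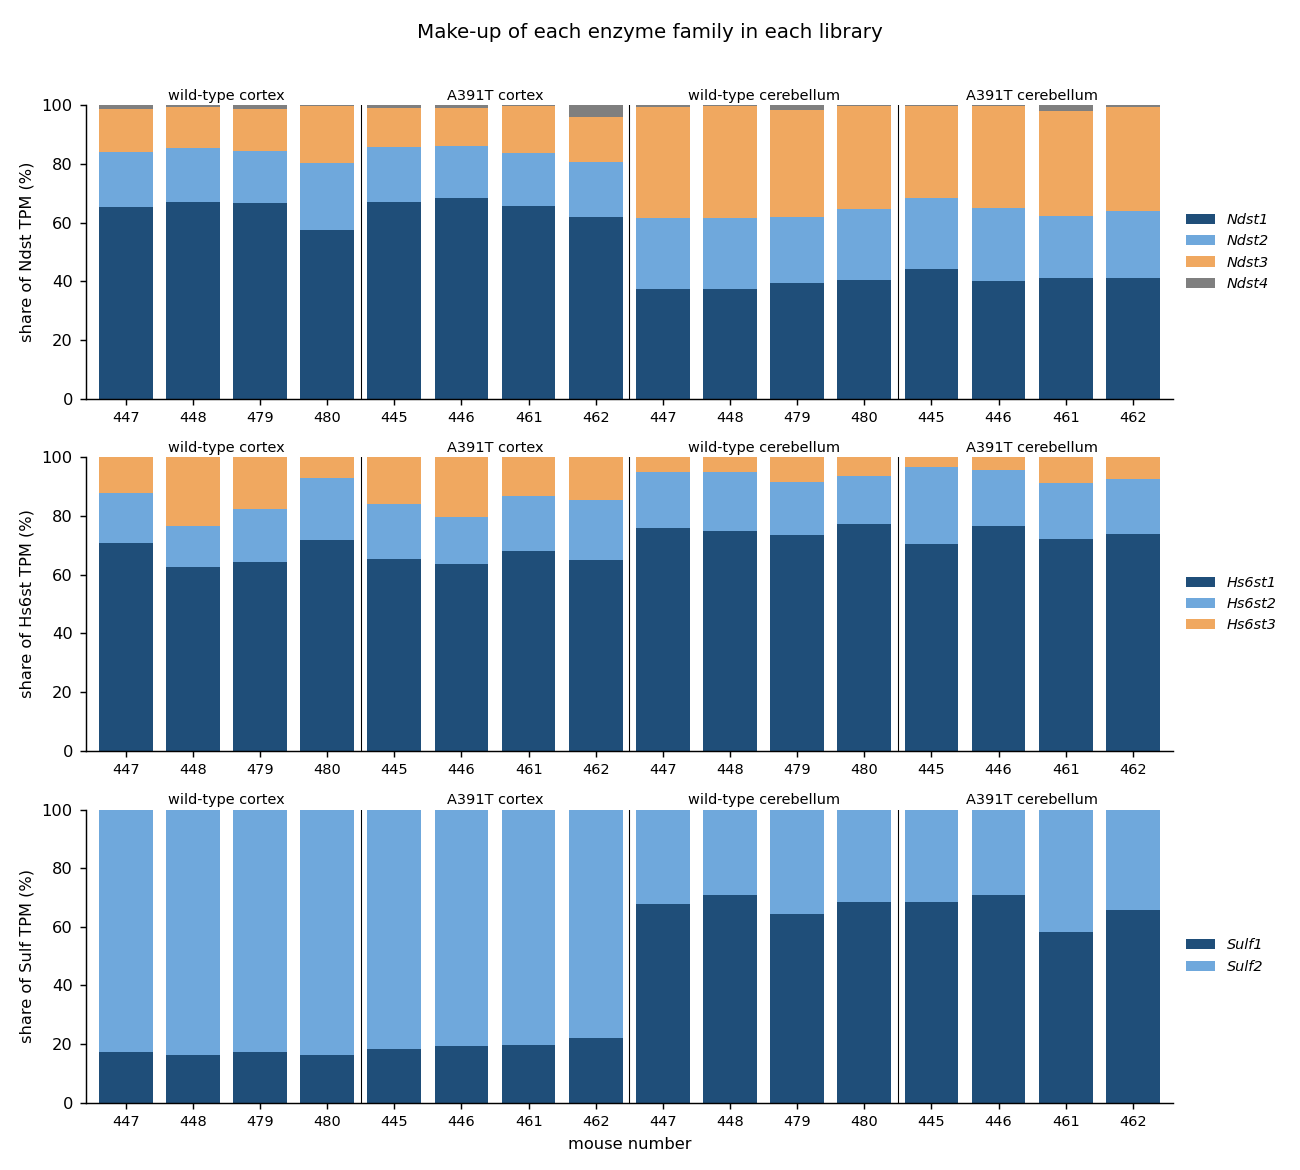
Share of each gene in the summed TPM of its family (vertical axes, percent) in each of the 16 libraries, by mouse number and group, for *Ndst1* to *Ndst4*, *Hs6st1* to *Hs6st3* and the *Sulf* pair. *Sulf1* goes from between 16.2% and 22.0% in the cortex to between 58.4% and 71.0% in the cerebellum, and *Ndst3* from between 12.9% and 19.5% to between 31.4% and 38.2%.

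The same mice gave both regions, so the ratio of cerebellum to cortex TPM was taken within each of 8 mice, which does not depend on the genotype names. *Ndst3* was higher in the cerebellum in 8 of 8 mice, by between 2.50 and 4.49 times with a median of 4.04. *Ndst2* was higher in 8 of 8, by between 1.37 and 2.57 times, and *Sulf1* in 8 of 8, by between 1.26 and 3.20 times. The smallest ratio of all 3 genes was that of CBLM445 over CTX445. *Sulf2* was lower in the cerebellum in 8 of 8 mice, with cortex between 3.46 and 7.76 times the cerebellum. The upper limit was that of CTX445 over CBLM445, and the other 7 mice reached at most 4.81 times. *Hs2st1* was lower in 8 of 8, with cortex between 1.51 and 1.96 times. *Hs6st3* was lower in 7 of 8, *Ndst1* in 5 of 8, *Ndst4* in 5 of 8, *Hs6st1* in 2 of 8 and *Hs6st2* in 1 of 8. These ratios carry the scaling of TPM to library totals. With TMM factors in their place, tried once the data had been seen, the tallies of *Ndst2*, *Ndst3*, *Ndst4*, *Hs2st1*, *Hs6st3*, *Sulf1* and *Sulf2* were the same, while *Ndst1* was lower in 6 of 8 mice, *Hs6st1* in 3 of 8 and *Hs6st2* in 3 of 8. No direction is given for *Hs6st1* or *Hs6st2*, which did not pass the test. Such tallies were not taken over all genes, of which 74.4% passed the adjusted p-value in the fit over both genotypes.

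**Figure D3:**
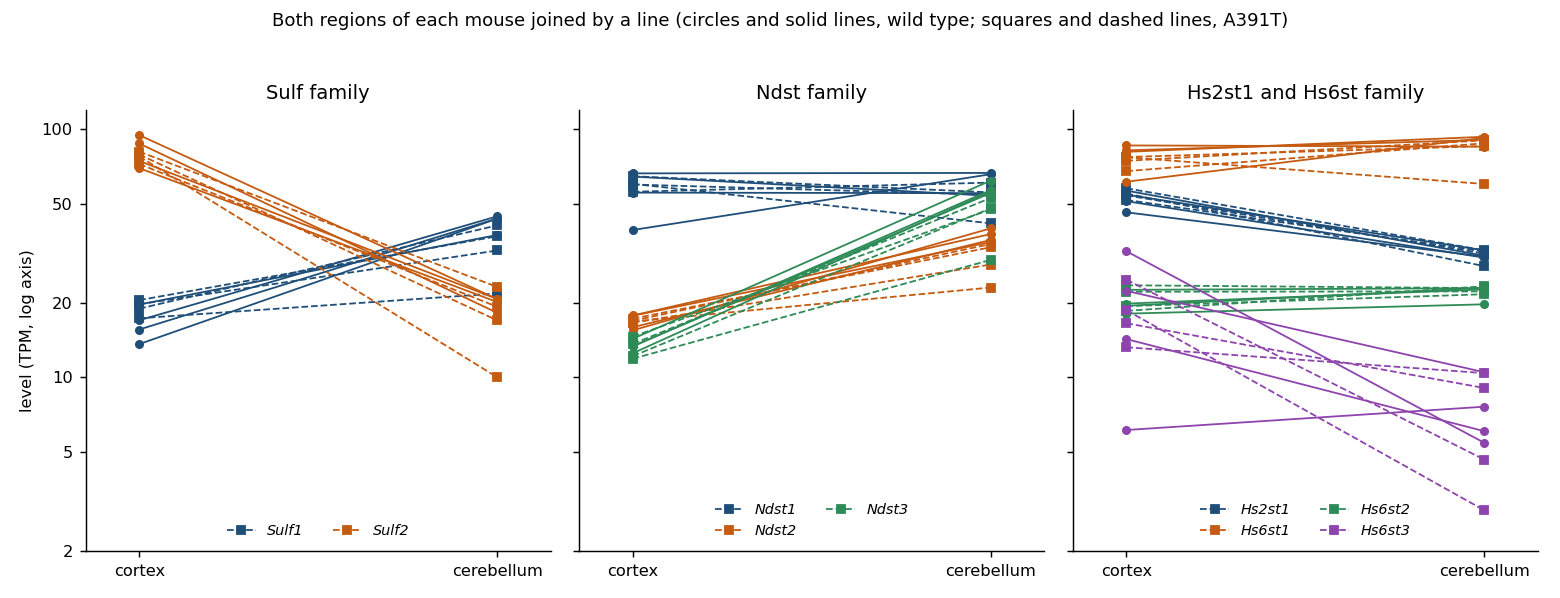
Level in TPM (vertical axis, log scale) in cortex and cerebellum, with both regions of each of the 8 mice joined by a line (solid with circles, wild type, and dashed with squares, A391T); *Ndst4* is left out for its low level. The lines of *Sulf1* and *Sulf2* cross in all 8 mice, those of *Ndst2* and *Ndst3* all rise and those of *Hs2st1* all fall.

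The fit over both genotypes, with 8 libraries a region, gave log2 fold changes of 1.81 ± 0.08 for *Ndst3*, -2.22 ± 0.11 for *Sulf2* and -1.52 ± 0.29 for *Hs6st3*, the 3 of 10 genes called there (adjusted p = 5.19e-13, 2.64e-12 and 0.000122 by edgeR). Of all 16589 genes in that fit, 25.2% were called, 10.5% as higher and 14.7% as lower, where 1 member was higher and 2 were lower. By the adjusted p-value alone 6 of 10 passed, against 74.4% of all genes, with 3 higher (38.8%) and 3 lower (35.6%). The 3 passed by that rule alone were *Sulf1* (0.95 ± 0.10), *Ndst2* (0.87 ± 0.06) and *Hs2st1* (-0.90 ± 0.05). In A391T mice alone 3 of 10 genes were called, against 24.7% of the 16005 genes tested, and 7 of 10 passed the adjusted p-value, against 62.8%. Of the 3 called, *Ndst3* was higher (9.8% of all genes) and *Sulf2* and *Hs6st3* were lower (14.9%). By the adjusted p-value alone 3 were higher (31.6%) and 4 lower (31.3%), *Ndst1* among the latter. By the RPKM names, 4 of 10 were called in A391T mice, with *Sulf1* added, where 25.4% of 16036 genes were called.

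**Figure D4:**
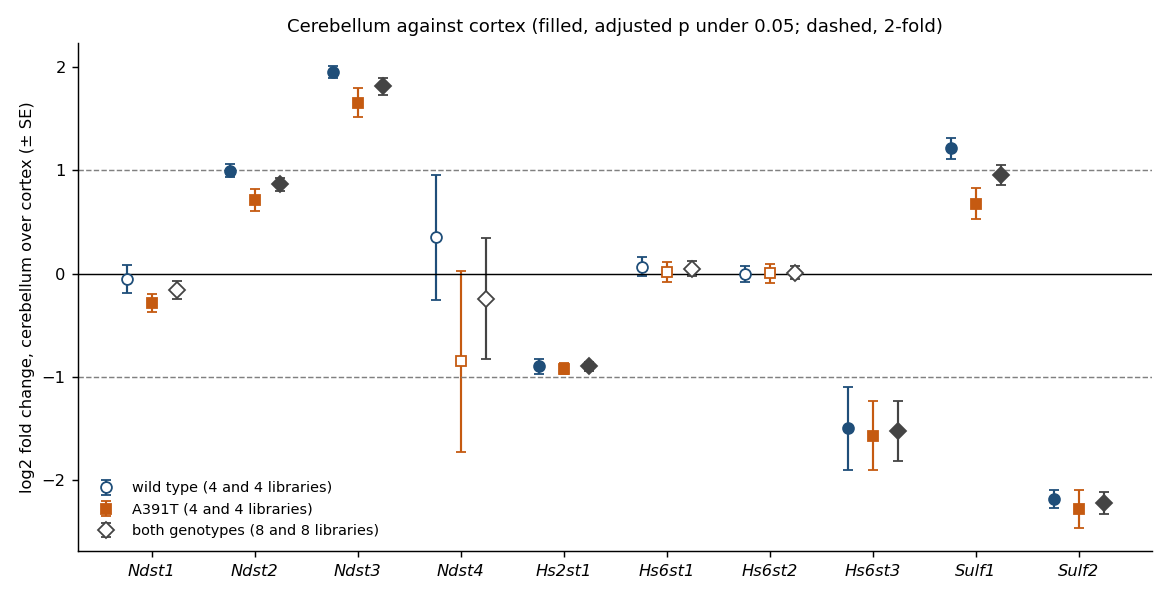
Log2 fold change of cerebellum over cortex (vertical axis, whiskers SE) of the 10 genes in wild-type mice, in A391T mice and over both genotypes. Filled symbols passed an adjusted p-value of 0.05 by edgeR and dashed lines mark 2-fold: *Ndst3* and *Sulf2* lie beyond 2-fold in all 3 fits, with *Sulf2* at -2.18, -2.28 and -2.22.

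The tissues are mixtures, and fewer cells of a type cannot be told apart here from less RNA per cell. Beside the neuron lists above, a list of 4 microglia genes summed to between 227 and 273 TPM in the cortex and between 50.5 and 75.8 TPM in the cerebellum. A list of 4 astrocyte genes summed to between 433 and 524 TPM in the cortex and between 896 and 1154 TPM in the cerebellum, and 5 genes of meninges and fibroblasts to between 48.6 and 68.9 TPM and between 123 and 143 TPM. The part of these differences in cell make-up in the results was not tested. A list of 6 choroid plexus genes varied from 43.2 to 8100 TPM among cerebellum libraries and was lowest in CBLM462 and CBLM479. In those 2 libraries *Sulf1* was at 37.1 and 37.5 TPM. The other A391T cerebellum libraries had 21.8, 41.0 and 32.5 TPM of *Sulf1*, and the other wild-type ones 43.7, 44.6 and 43.6 TPM. *Ndst3* was at 52.9 and 62.1 TPM in CBLM462 and CBLM479, each the highest of its group. The part of choroid plexus in these levels was not tested.

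Many genes followed the region as closely as these members over the 16 libraries. By Pearson's r of log2 CPM, the genes most like *Ndst3* were *Neb* (0.996), *Ficd* (0.996) and *Sphkap* (0.995), and 1662 genes had an r over 0.95 with it. For *Sulf2* they were *Cdk14* (0.997), *Magi3* (0.997) and *Rab6b* (0.997), with 1543 genes over 0.95, and for *Sulf1* they were *Trim3* (0.983), *Cdc23* (0.980) and *Jmjd8* (0.978), with 307. For *Hs6st3*, whose level also varied within a region, only 5 genes had an r over 0.95, led by *Lmbrd2* (0.958), *Xylt1* (0.958) and *Dcc* (0.955). The libraries share their region, and the values are a description.

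The other genes of heparan sulfate give the setting, in wild-type cerebellum against cortex, where 10.5% of all genes were called higher and 14.2% lower. Of 11 genes that build the linker and the chain, 2 were called lower and none higher, *Extl1* (-2.70 ± 0.12, adjusted p = 6.57e-09 by edgeR) and *Xylt1* (-1.03 ± 0.29, adjusted p = 0.00777), and the list's median log2 fold change was -0.27. *Xylt1* starts the chain on the core protein. Of 7 3-O-sulfotransferases, which make the rarest modification, 4 were called lower and 2 higher, with a median of -1.89. The largest were *Hs3st4* (-5.20 ± 0.23, adjusted p = 4.31e-09) and *Hs3st2* (-4.70 ± 0.18, adjusted p = 1.74e-09) among those lower, and *Hs3st1* (1.33 ± 0.13, adjusted p = 3.52e-06) and *Hs3st6* (1.03 ± 0.25, adjusted p = 0.00338) among those higher. By the RPKM names *Xylt1* was at -0.79 ± 0.25 and was not called, and 4 of the 3-O-sulfotransferases were again called lower and 2 higher. Over the wild-type mice named alike, *Xylt1* (-0.65 ± 0.47) and *Hs3st6* (0.81 ± 0.38) were not called.

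Of 5 genes that supply the sulfate donor PAPS, 1 was called lower, *Papss2* (-1.15 ± 0.09, adjusted p = 4.49e-07 by edgeR), with a median of -0.18. In A391T mice 0 of 5 were called, and *Papss2* was at -0.92 ± 0.11 (adjusted p = 5.34e-05 by edgeR), while by the RPKM names it was called there at -1.01 ± 0.11. Of 2 heparanases, which cut the chain, 1 passed the filter on low counts and was called lower, *Hpse* (-3.18 ± 0.28, adjusted p = 1.61e-06), at a mean of 1.83 TPM in wild-type cortex. Of 8 genes of lysosomal breakdown 1 was called lower, *Ids*, the iduronate sulfatase (-1.34 ± 0.06, adjusted p = 2.94e-09), with a median of 0.40. Of 13 core proteins 3 were called higher and 4 lower, with a median of 0.03, beside the 10.5% and 14.2% of all genes. The largest were *Col18a1* (4.38 ± 0.09, adjusted p = 1.64e-11) and *Sdc1* (3.73 ± 0.15, adjusted p = 1.72e-09), and on the lower side *Gpc5* (-2.09 ± 0.10, adjusted p = 7.36e-09) and *Gpc3* (-1.26 ± 0.16, adjusted p = 3.96e-05). Over the wild-type mice named alike *Agrn*, a core protein called lower by the count files' names (-1.06 ± 0.09), was at -0.97 ± 0.14 and was not called. Over all genes tested the median was 0.02.

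The second question is whether the A391T variant changes any of these genes. In the cortex 0 of 10 genes were called, against 0.00632% of the 15815 genes tested, and 0 of 10 had an adjusted p-value under 0.05, against 0.0126%. Log2 fold changes of A391T over wild type lay between -0.09 and 0.20 for all but *Ndst4* (0.99 ± 0.70), and 0 of 10 had an unadjusted p-value under 0.05, where 748 of all genes did. *Sulf1* came nearest, at 0.20 ± 0.10 by the count files' names. The exact test of edgeR called 2 of all genes in this comparison and DESeq2 called 2, none of them among the 10. *Ndst4* rested on CTX462 and was -0.25 without it.

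In the cerebellum 0 of 10 genes passed either rule, where 0.0% of the 15668 genes tested passed. An unadjusted p-value under 0.05 by edgeR was found for 2 of the 10, *Ndst2* and *Ndst3*, and for 1340 of all genes. The log2 fold change of A391T over wild type was -0.33 ± 0.13 for *Ndst3* (adjusted p = 0.532 by edgeR), -0.27 ± 0.10 for *Ndst2* (adjusted p = 0.532) and -0.31 ± 0.15 for *Sulf1* (adjusted p = 0.532). In each of these 3 genes the lowest A391T library was CBLM445, and without it the values were -0.21, -0.19 and -0.19. By the names of the RPKM table they were -0.16, -0.07 and 0.05, and the smallest p-value was that of *Hs6st3* (-0.93 ± 0.21, adjusted p = 0.549 by edgeR). The exact test of edgeR called 8 of all genes and DESeq2 called 10, again none of the 10 members.

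The interaction of region and genotype, fitted over all 16 libraries, called 0 of 10 genes and 0.0% of the 16589 genes tested by either rule, and 805 of all genes had an unadjusted p-value under 0.05 by edgeR. Of the 10, *Sulf1* had the smallest p-value, with a difference of -0.52 ± 0.19 between the region effects of the genotypes (adjusted p = 0.769 by edgeR), and *Ndst2* followed at -0.27 ± 0.12 (adjusted p = 0.769). By the names of the RPKM table the difference was 0.15 for *Sulf1*, and the smallest p-value was that of *Hs6st3* (-1.56 ± 0.44, adjusted p = 0.501 by edgeR). The region effect of *Sulf1*, past 2-fold in wild type and not in A391T mice, is thus not shown to differ between genotypes. DESeq2 called 0 of the 10 by either rule as well.

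**Figure D5:**
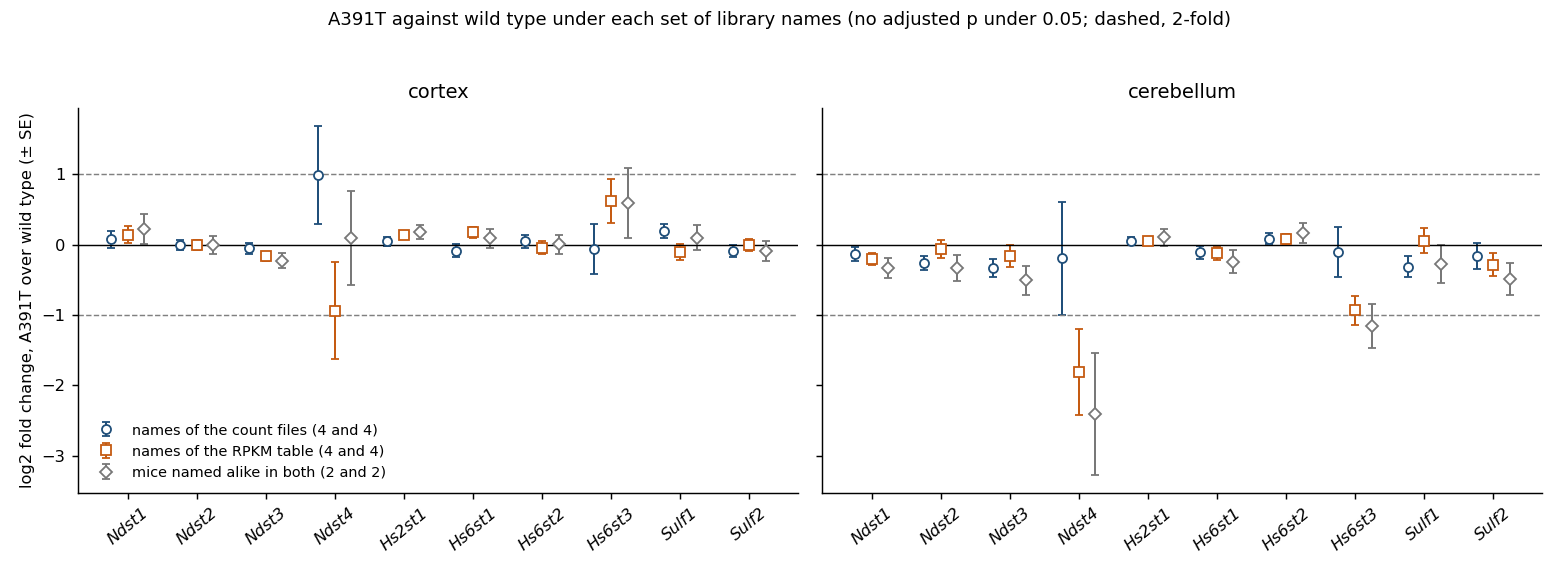
Log2 fold change of A391T over wild type (vertical axis, whiskers SE) of the 10 genes in cortex and cerebellum, by the names of the count files, by those of the RPKM table and over the 4 mice named alike. No value has an adjusted p-value under 0.05, and *Ndst4* in the cortex goes from 0.99 to -0.94 with the names.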

How the data were processed

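PolyA-selected directional libraries were made from cortex and cerebellum of 8 mice. According to the methods, alignment was to mm9 with STAR and counting with HTSeq on Ensembl genes. The deposited counts are whole reads per gene, in 1 file per library, and the methods do not state the strand setting of the counting. The authors also deposited a table of RPKM with gene lengths, from which only the lengths (bases, how taken not given in the sources used here) and the library names were used.

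Each comparison was fitted to the counts of its own libraries by the quasi-likelihood test of edgeR 4.0.16 (R 4.3.3), after filterByExpr and TMM scaling. The interaction and the fit over both genotypes used all 16 libraries. P-values were adjusted by Benjamini-Hochberg across every gene in a fit, and calls needed 0.05 and 2-fold. TPM were computed from counts and lengths. Library totals ran from 20813432 to 30497206 counts, and every replicate pair differed by more than sampling noise. Counts simulated with log2 fold changes of 2 in size gave back 199 of 199 changed genes (2 false calls) in the design of the wild-type regions. In that of the cortex genotypes 198 of 200 came back (1 false call). The recovery of smaller changes was not simulated.

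Same-numbered libraries come from 1 animal, although their deviations from group means correlated little (-0.19 to 0.25 in wild type, -0.18 to 0.13 in A391T mice). The printed standard errors and p-values are from fits without this pairing, and the fit with a replicate block was an alternative. The p-values measure the spread between mice. Alternatives covered other tests (edgeR's exact test, DESeq2 1.42.0), scalings, filters, a replicate block, the other library names, gene lengths and leaving out each library. Named genes were the 10 members, the 3 genes most correlated with a called member, and at most 2 called genes per pathway list and direction in the wild-type regions. *Glce*, not called, and *Agrn*, whose call changed with the mice used, fall outside this rule and were chosen after their values were seen. The members and lists were chosen with earlier results of these data known.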

Additional observations from a re-analysis of the deposited data

Results flagged for a closer look

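Of 40 sets of 4 libraries (10 genes in 4 groups), 4 held a library whose gap to its nearest neighbour, as a share of the group's range, was past Dixon's critical value, and chance alone flags about 1 in 20 such sets. *Ndst4* in A391T cortex was highest in CTX462, at 3.72 TPM. *Hs6st1* in A391T cerebellum was lowest in CBLM445, at 60.2 TPM, the library that was also lowest for most other members. *Hs6st2* in wild-type cerebellum was lowest in CBLM480, at 19.7 TPM. *Sulf1* in wild-type cerebellum was lowest in CBLM479, at 37.5 TPM, the wild-type cerebellum library with the lowest sum of choroid plexus genes.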

How the results depend on the processing

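*Ndst3* and *Sulf2* were called in all 19 alternatives in either genotype, and *Hs2st1* passed the adjusted p-value but not the 2-fold criterion in all of them. With the replicate block, which pairs the regions of a mouse, 4 genes were called in wild type, 3 in A391T mice and 3 over both genotypes, the same counts as without it (24.7%, 24.6% and 25.2% of all genes tested), and *Hs6st3* in wild type was -1.36. By the RPKM names, 2 genes were called in wild type, with the block or without it (23.8% and 23.9% of all genes tested). In the fits by the count files' names without the block, 7 genes passed the adjusted p-value alone in A391T mice (62.8% of all genes tested). Over both genotypes 6 did (74.4%). Without 1 library the counts were 4 to 5 in wild type, 3 to 3 in A391T mice, 3 to 4 over both genotypes (24.6% to 25.2%, 24.6% to 25.5% and 25.4% to 25.9% of all genes), and 0 to 0 for genotype and interaction. In CPM, without division by length, 7 pairs of neighbours were separated in the cortex and 3 in the cerebellum. The wild-type share of *Ndst3* was 20.3% and 46.8% (cortex and cerebellum) in CPM and 19.7% and 44.1% with the annotation's lengths. That of *Sulf1* was 12.1% and 59.2% in CPM, 14.8% and 64.7% with the annotation's lengths, and 18.8% and 64.2% by the RPKM names. Without 1 library these shares ranged from 14.3% to 16.2% and from 36.5% to 37.7% for *Ndst3*, and from 16.6% to 16.9% and from 66.9% to 69.1% for *Sulf1*.

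Signs turned as follows, all as log2 fold changes, and the cause was not tested. Between regions in wild type, *Ndst1* was 0.074 and *Hs6st2* 0.12 with library totals, which move the median of all genes by 0.12. *Ndst1* was 0.013 and *Ndst4* -0.072 by the RPKM names, and *Ndst1* was 0.16 over the mice named alike and 0.031 with the block and the RPKM names. In A391T mice *Hs6st2* was -0.0038 with DESeq2, -0.0037 with RLE size factors and -0.0057 with a filter at 1 CPM. *Hs6st1* was -0.12 by the RPKM names, -0.15 over the mice named alike and -0.12 with the block and the RPKM names. Between genotypes by the RPKM names, *Ndst4* was -0.94 and *Sulf1* -0.10 in the cortex, and *Sulf1* was 0.054 in the cerebellum. The interaction of *Sulf1* was 0.15 by those names and 0.11 with the block added. Without 1 library, wild type gave -0.19 to 0.022 for *Ndst1*, -0.55 to 0.72 for *Ndst4*, -0.030 to 0.11 for *Hs6st1* and -0.049 to 0.060 for *Hs6st2*. A391T mice gave -2.10 to 0.38 for *Ndst4*, -0.036 to 0.11 for *Hs6st1* and -0.058 to 0.071 for *Hs6st2*, and *Ndst4* between genotypes in the cortex ranged from -0.25 to 1.36.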
